A study of Mus musculus with 9 samples.

Results

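The lysosome is an acidic organelle in which hydrolases break down proteins, glycans, lipids and nucleic acids. Its membrane carries highly glycosylated proteins, channels and transporters, and the vacuolar proton pump keeps its lumen acidic. The transcription factor TFEB binds short promoter sequences and can drive many lysosomal genes together. In bone, lysosomal enzymes are best known from osteoclasts, which secrete them to resorb matrix, but osteoblasts and osteocytes also depend on lysosomes to turn over matrix and organelles.

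Expression of 37 lysosomal genes was examined, chosen by name as hydrolases, membrane proteins and the regulator Tfeb, out of 55416 genes in the count table. Of these, 35 had enough counts to be tested, among 13679 genes tested in all. By role they comprise 10 cathepsins and related proteases, 10 glycosidases with 1 sulfatase counted among them, 8 proteins of lipid and sphingolipid handling, 5 membrane proteins, 2 proton pump subunits, and Tfeb with the autophagy cargo receptor Sqstm1. The cells were MC3T3-E1, a wild-type mouse pre-osteoblast line from calvarial bone, used by the study as 1 subclone and differentiated until they resembled osteocytes. Every group, Control included, had been differentiated in medium with ascorbic acid, dexamethasone and β-glycerophosphate (BGP), and the sources differ on when it ended: the labels describe this medium up to the treatment, the study's methods a withdrawal of BGP before it. The Control cells had therefore met BGP earlier, up to a time that is not settled. On day 27 cells received 4 mM BGP as an organic phosphate, 4 mM NaHPO4 (a mixture of the mono- and dibasic sodium salts) as an inorganic phosphate, or neither, for 16 h. The base medium held 1 mM sodium phosphate monobasic in every group, so Control and BGP cells also had inorganic phosphate. The study names this background as a possible confounder. The question of the study was how cells that produce FGF23 respond to organic against inorganic phosphate.

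Each of the 3 groups had 3 libraries of poly(A) RNA, with 21390839 to 28234404 counted reads per library. Depth was 21390839 to 25646046 in Control, 22331071 to 23546609 with BGP and 25203779 to 28234404 with NaHPO4. The NaHPO4 libraries were thus deeper than every BGP library and overlapped Control. The labels do not state whether the replicates were separate cultures, so the p-values measure only the spread between these libraries. All 12 osteoblast and osteocyte markers examined passed the count filter, and Col1a1, the main collagen of bone matrix, was the most abundant of them at a Control mean of 43285 CPM (counts per 1e+06 counted reads). Of 12 macrophage and osteoclast markers only Csf1r, Fcer1g and Cd68 passed the filter, and Tyrobp, Itgam, Dcstamp and Calcr had 0 counts in every library. The 12 together summed to 48 to 74 counts in the Control libraries, 64 to 90 with BGP and 46 to 72 with NaHPO4. Per 1e+06 counted reads of each library the sums were 2.07 to 2.89 in Control, 2.72 to 4.03 with BGP and 1.83 to 2.55 with NaHPO4. On this scale every BGP library lay above every NaHPO4 library.

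Because TFEB is known to bind promoter elements with the letters TCACGTGA, which contain the E-box core CACGTG, promoters of the lysosomal genes were searched for both. The promoters are those of RefSeq on build GRCm38.p6, running from 250 bases before to 50 bases after the annotated start. Both motifs read the same on either strand, so a match counts for both strands. The table held entries for 32 of the 37 genes, with 36 promoters in all, and none for Ctsb, Ctsh, Npc1, Asah1 and Atp6v1h. CACGTG occurred in 10 of the 36 promoters (27.8%), against 7.15% of all 32851 promoters. TCACGTGA occurred in 5 of the 36 (13.9%), those of Atp6v0d1, Ctsa, Ctsd, Gla and Mcoln1, against 0.974% of all promoters. The motifs were chosen as those of a known regulator of lysosomal genes, so a higher share in this list is no separate finding. These shares carry no test. The promoters of 7 genes are printed 5′ to 3′ on the gene's strand, with each match in capitals. Ctsa (for which 1 of its entries is shown) and Gla hold 2 copies of TCACGTGA, Mcoln1 holds 1 copy and a further CACGTG, and Lamp1 holds 4 copies of CACGTG. Gaa holds 1 CACGTG and is shown because it was lower with NaHPO4, as were Psap and Neu1, whose windows hold neither motif.
Ctsa, chr2:164833523-164833822, plus strand: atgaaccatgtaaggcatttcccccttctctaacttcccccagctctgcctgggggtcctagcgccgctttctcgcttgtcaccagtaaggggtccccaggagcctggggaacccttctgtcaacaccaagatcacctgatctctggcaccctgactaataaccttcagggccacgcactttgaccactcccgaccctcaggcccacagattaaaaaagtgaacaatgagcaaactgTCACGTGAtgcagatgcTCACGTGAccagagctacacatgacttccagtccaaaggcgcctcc
Gla, chrX:134600956-134601255, minus strand: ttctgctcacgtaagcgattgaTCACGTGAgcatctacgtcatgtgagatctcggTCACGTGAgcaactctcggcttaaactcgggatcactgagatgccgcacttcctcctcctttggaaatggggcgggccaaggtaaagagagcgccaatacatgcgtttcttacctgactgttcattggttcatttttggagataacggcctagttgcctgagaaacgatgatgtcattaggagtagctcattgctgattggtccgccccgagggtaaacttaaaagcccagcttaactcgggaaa
Mcoln1, chr8:3500269-3500568, plus strand: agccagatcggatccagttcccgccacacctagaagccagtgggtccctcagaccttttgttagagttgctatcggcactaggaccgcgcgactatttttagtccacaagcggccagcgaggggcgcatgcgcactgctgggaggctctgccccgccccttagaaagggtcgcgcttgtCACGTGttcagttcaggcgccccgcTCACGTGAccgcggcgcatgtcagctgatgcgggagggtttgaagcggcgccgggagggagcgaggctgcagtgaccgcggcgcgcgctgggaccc
Lamp1, chr8:13158911-13159210, plus strand: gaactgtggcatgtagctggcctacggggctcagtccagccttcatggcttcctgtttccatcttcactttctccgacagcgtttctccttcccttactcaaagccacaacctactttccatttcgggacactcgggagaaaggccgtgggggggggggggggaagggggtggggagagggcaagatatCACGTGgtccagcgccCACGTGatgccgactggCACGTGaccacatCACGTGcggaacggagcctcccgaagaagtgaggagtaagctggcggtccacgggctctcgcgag
Gaa, chr11:119267713-119268012, plus strand: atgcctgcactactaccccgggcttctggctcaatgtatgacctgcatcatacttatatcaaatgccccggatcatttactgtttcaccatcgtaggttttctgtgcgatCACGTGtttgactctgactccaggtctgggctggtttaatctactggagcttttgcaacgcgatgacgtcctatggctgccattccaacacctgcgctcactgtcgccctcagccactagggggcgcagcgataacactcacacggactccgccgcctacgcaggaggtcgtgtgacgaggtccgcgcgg
Psap, chr10:60277378-60277677, plus strand: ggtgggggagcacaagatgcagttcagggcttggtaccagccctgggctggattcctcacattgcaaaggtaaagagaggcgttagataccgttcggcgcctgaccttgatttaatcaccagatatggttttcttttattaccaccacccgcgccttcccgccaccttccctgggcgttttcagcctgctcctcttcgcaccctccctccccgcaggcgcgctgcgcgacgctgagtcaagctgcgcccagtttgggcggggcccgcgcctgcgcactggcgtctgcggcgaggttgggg
Neu1, chr17:34931003-34931302, plus strand: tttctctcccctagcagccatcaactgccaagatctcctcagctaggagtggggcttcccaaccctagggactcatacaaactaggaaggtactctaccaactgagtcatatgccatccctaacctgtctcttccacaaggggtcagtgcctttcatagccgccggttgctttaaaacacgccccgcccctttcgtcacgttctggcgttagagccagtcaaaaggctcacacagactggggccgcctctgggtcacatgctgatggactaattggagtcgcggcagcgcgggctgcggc

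Lysosomal transcripts were abundant. The 37 genes took up 0.9373% to 0.958% of all counted reads in the Control libraries. Levels of different genes were compared per kb of the canonical transcript in the GENCODE annotation, as group means in Control. The tetraspanin Cd63 stood highest at 659 CPM per kb. It was followed by Psap, precursor of the saposins that help hydrolases degrade sphingolipids, at 558.5 CPM per kb. Laptm4a reached 418 CPM per kb, and the major lysosomal membrane glycoproteins Lamp1 and Lamp2 reached 319 and 308 CPM per kb. Among the cathepsins the aspartic protease Ctsd was highest at 177 CPM per kb, ahead of the collagen-degrading Ctsk at 154 and the cysteine protease Ctsb at 135 CPM per kb. The lowest levels belonged to the glycosidases Idua (3.84 CPM per kb), Gla (4.16 CPM per kb) and Manba (5.89 CPM per kb), and Tfeb itself was at 7.28 CPM per kb. Ctsc, which activates granule proteases, and Ctsf were listed at 0 counts in all 9 libraries. A count of 0 allows up to 3 counts by counting error, which corresponds to 0.106 to 0.14 CPM depending on the library. In the annotation 13.8% of the exon bases of Ctsf overlap the neighbouring Actn3 on the opposite strand, which held 2450 to 3056 counts per library. No gene was found to overlap the remaining exon bases of Ctsf, and the part of Actn3 in its 0 counts was not tested.

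With BGP the lysosomal genes stayed within a narrow range of Control. None of the 35 tested genes rose or fell against Control at a false discovery rate (FDR, Benjamini-Hochberg over all genes tested by edgeR's quasi-likelihood test) below 0.05, while 2.53% of all tested genes did (1.86% higher and 0.665% lower). Two-sided p-values before adjustment were below 0.05 for 2 of the 35, Ctsl and Ctsd, and both DESeq2 and limma called 1 gene, Ctsl, as lower. The log2 fold changes (log2FC) ran from -0.13 to 0.07 with a median of -0.000453, and the median of all tested genes was -0.00432. The 95% intervals bound what could have been missed. The lowest bound was -0.321 for Gla and the highest 0.213 for Idua, so no interval reached an absolute log2FC of 0.5, the fold threshold used in the study, which 0.556% of all tested genes passed together with the FDR. All 3 BGP libraries lay above all Control libraries for 5 genes and below them for 4, where 9.74% and 8.79% of all tested genes did so.

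With NaHPO4, 9 of the 35 genes fell and none rose. They were the proteases Ctsk, Ctsb, Ctsl and Tpp1, the glycosidases Neu1, Hexa and Gaa, the saposin precursor Psap and the membrane protein Lamp2. Tpp1 fell by 7.75% and Neu1 fell by 17.1%, with the other 7 between them. None passed an absolute log2FC of 0.5, which 0.716% of all tested genes passed together with the FDR. These 9 are 25.7% of the tested lysosomal genes, against 7.38% of all tested genes called, 3.95% lower and 3.43% higher. The median log2FC of the 35 genes was -0.06, compared with 9.75e-05 over all tested genes. Of the 35 values 23 were below 0, as were 6836 of all 13679 tested genes. For 16 of the 35 every NaHPO4 library lay below every Control library, against 11.6% of all tested genes, and for 4 every one lay above, again against 11.6%. In bulk RNA, fewer cells of a type and less RNA per cell cannot be told apart. With total counts in place of TMM factors the median of the lysosomal genes was -0.03 and that of all tested genes 0.0246. The calls among all genes moved from 469 higher and 540 lower (46.5% higher) to 777 higher and 413 lower (65.3% higher). Of the 9 lysosomal genes 8 stayed called lower, Tpp1 was lost and Npc1, the cholesterol exporter, was called higher.

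**Figure D1:**
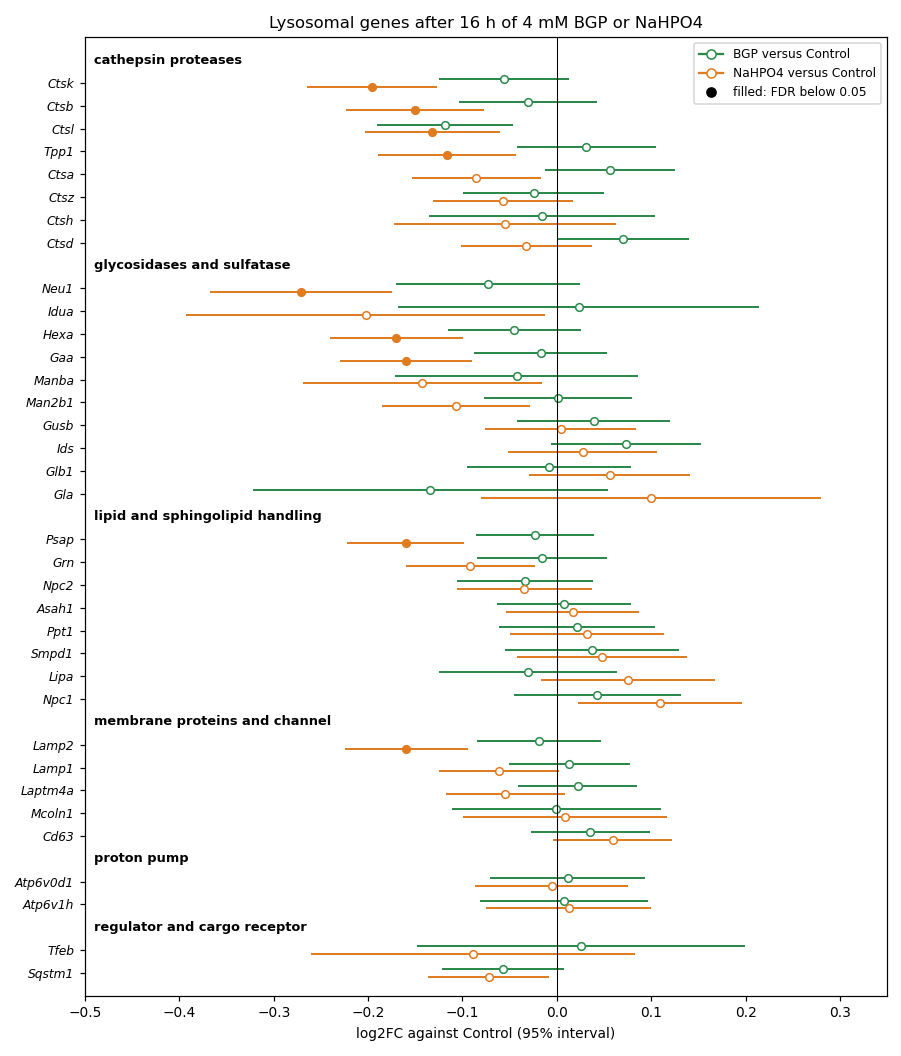
Log2FC against Control with 95% intervals (x axis) for the 35 tested lysosomal genes (y axis), grouped by role, after BGP (green) and NaHPO4 (orange); filled points passed an FDR of 0.05. The 9 filled points all belong to NaHPO4 and lie between -0.27 for Neu1 and -0.12 for Tpp1, while no BGP point is filled.

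A direct comparison of the treatments tests the difference between them. With BGP, 9 genes were higher than with NaHPO4 and none was lower, or 25.7% of the 35 against 5.38% of all tested genes called, 3.33% higher and 2.05% lower. They were Ctsa, Ctsb, Ctsk, Tpp1, Gaa, Hexa, Neu1, Psap and Lamp2, with differences of 8.69% to 14.7%. None was past an absolute log2FC of 0.5, which 0.585% of all tested genes passed together with the FDR. The median log2FC was 0.05, against -0.00185 over all tested genes. For 15 genes every BGP library lay above every NaHPO4 library and for 2 every one lay below, where 10.8% and 10.4% of all tested genes did so. This comparison shares the NaHPO4 libraries with the preceding one, so its calls are not a separate observation of NaHPO4. Among all genes, 456 calls were higher and 280 lower (62% higher) with TMM factors. With total counts in their place these were 322 higher and 494 lower (39.5% higher). The median of the lysosomal genes moved to 0.02 and that of all tested genes to -0.029. Of the 9 lysosomal genes 7 stayed called, without Ctsb and Hexa. Leaving out BGP replicate 3 reduced the 9 to 5, with Ctsb, Gaa, Hexa and Tpp1 no longer called. Among all tested genes it reduced the calls higher with BGP from 456 to 344.

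Among the proteases all 8 tested genes had a log2FC below 0 with NaHPO4, as did 6836 of all 13679 tested genes. Of the 8, 4 fell (50%, against 3.95% of all tested genes). Ctsk, the collagenase best known from osteoclasts and also made by osteocytes, was at 293, 295 and 288 CPM in the Control libraries, 273, 285 and 285 CPM with BGP and 249, 255 and 262 CPM with NaHPO4. The NaHPO4 libraries were the lowest 3 of the 9, and the BGP libraries lay between them and Control without overlap. Ctsk fell with NaHPO4 (log2FC -0.20, SE 0.033, FDR 8.43e-05) and differed between BGP and NaHPO4, with BGP above (log2FC 0.14, SE 0.033, FDR 0.00679), whereas its log2FC of -0.06 with BGP did not pass the test (FDR 0.497).

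Ctsb, a broad cysteine protease of the lysosome, measured 657, 657 and 617 CPM in Control, 597, 637 and 656 CPM with BGP and 559, 584 and 597 CPM with NaHPO4. Control and NaHPO4 did not overlap, but the lowest BGP library reached down to the highest NaHPO4 library. Ctsb fell with NaHPO4 (log2FC -0.15, SE 0.035, FDR 0.00463) and the difference between the treatments passed the test (log2FC 0.12, FDR 0.0368), while BGP against Control gave -0.03 (95% interval -0.10 to 0.04). Ctsl, another cysteine protease, was at 191, 200.3 and 198 CPM in Control, 184, 184 and 175 CPM with BGP and 179.9, 178 and 179.8 CPM with NaHPO4. Both phosphates lay below all Control libraries and overlapped each other. The decrease passed the test with NaHPO4 (log2FC -0.13, SE 0.035, FDR 0.0123) and not with BGP (log2FC -0.12, SE 0.035, FDR 0.0598), and the treatments themselves differed by 0.01 (95% interval -0.06 to 0.08). Without Control replicate 2 or NaHPO4 replicate 2 the FDR of Ctsl with NaHPO4 was 0.0591 or 0.0609.

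The tripeptidyl peptidase Tpp1, loss of which causes a neuronal storage disease, was at 151, 154 and 154 CPM in Control, 152, 155 and 162 CPM with BGP and 142, 140.0 and 141 CPM with NaHPO4. All NaHPO4 libraries were below the other 6. It fell with NaHPO4 (log2FC -0.12, SE 0.035, FDR 0.0358), a call that was held in 8 of 17 alternative settings, with an FDR of up to 0.13, and was lost when any Control or any NaHPO4 library was left out. The difference from BGP also passed the test (log2FC 0.15, SE 0.035, FDR 0.00737). Ctsa, the protective protein that stabilises Neu1 and Glb1, held 244, 238 and 247 CPM in Control, 249.7, 254 and 253 CPM with BGP and 224, 229.7 and 233 CPM with NaHPO4. Its groups did not overlap, with BGP above and NaHPO4 below Control, but only the difference between the treatments passed the test (log2FC 0.14, SE 0.033, FDR 0.00591), and the log2FC against Control were 0.06 with BGP (FDR 0.492) and -0.09 with NaHPO4 (FDR 0.122).

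Ctsd, the main aspartic protease, had 372, 369 and 389 CPM in Control, 400.3, 389 and 396 CPM with BGP and 354, 368 and 383 CPM with NaHPO4. BGP lay just above Control and NaHPO4 overlapped it, and no comparison of Ctsd passed the test (log2FC 0.07 with BGP, FDR 0.367, and -0.03 with NaHPO4, FDR 0.672). Without NaHPO4 replicate 3 the difference between the treatments was called (log2FC 0.13, FDR 0.0294). For Ctsz and Ctsh, both exopeptidases, the log2FC with NaHPO4 were -0.06 (95% interval -0.13 to 0.02) and -0.06 (-0.17 to 0.06). Parts of some genes overlap others in the annotation, and whether the counting used the strand is not given in the sources used here. The gene with the largest overlap covers 24.3% of the exon bases of Ctsa, 15.4% of Ctsb, 26.1% of Ctsl and 29.2% of Ctsd. A further gene overlaps Ctsa and another Ctsl, so their full share can be larger. The same-strand models Gm49230 and Gm49369 are among the genes that overlap Ctsl and Ctsd. No such overlap was found for Ctsk or Tpp1.

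**Figure D2:**
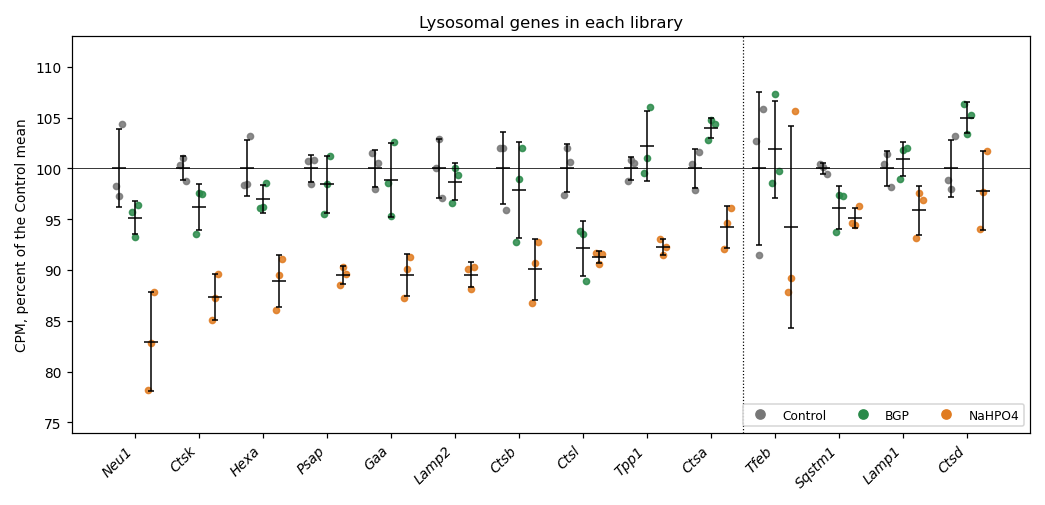
CPM in each library as a percent of the gene's Control mean (y axis, which does not start at 0) for the 10 lysosomal genes called in any comparison (left of the dotted line) and 4 further genes (right); points are libraries of Control (grey), BGP (green) and NaHPO4 (orange), and bars show mean ± SD of 3 libraries. NaHPO4 points lie below all Control points for each of the 10 and, to the right, for Lamp1 and Sqstm1. For Ctsd and Tfeb they overlap Control.

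Glycosidases, which remove sugars from glycoproteins, glycolipids and glycogen, held the largest decrease. Neu1, the sialidase that removes terminal sialic acids, was at 65.6, 65 and 69.7 CPM in Control, 63.9, 62.3 and 64.3 CPM with BGP and 52.2, 55.3 and 58.6 CPM with NaHPO4. The 3 groups did not overlap, with Control highest and NaHPO4 lowest. Neu1 fell by 17.1% with NaHPO4 (log2FC -0.27, SE 0.047, FDR 0.000118) and differed between BGP and NaHPO4, with BGP above (log2FC 0.20, SE 0.047, FDR 0.00707), and the value for BGP against Control was -0.07 (FDR 0.545).

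Hexa, the α subunit of β-hexosaminidase, which degrades gangliosides, was at 251, 251 and 263 CPM in Control, 245, 245 and 251 CPM with BGP and 219, 228 and 232 CPM with NaHPO4. Gaa, which degrades glycogen in the lysosome, was at 311, 300.4 and 308 CPM in Control, 302, 292 and 315 CPM with BGP and 267, 276 and 279.7 CPM with NaHPO4. For both genes the NaHPO4 libraries were below the other 6, and BGP and Control overlapped. Hexa fell with NaHPO4 (log2FC -0.17, SE 0.034, FDR 0.000831), as did Gaa (log2FC -0.16, SE 0.034, FDR 0.00161). The differences between BGP and NaHPO4 were 0.13 for Hexa (FDR 0.0214) and 0.14 for Gaa (FDR 0.00702), and the Hexa difference was called in 11 of 17 alternative settings. Other genes overlap 7.91% of the exon bases of Neu1 and 4.66% of Hexa, and none was found to overlap Gaa.

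The other 7 glycosidases and sulfatase did not pass the test in any comparison, and their values pointed both ways. Idua, which acts on heparan and dermatan sulfate, had the second largest negative log2FC of the group with NaHPO4, -0.20, at only 13.9, 12.1 and 12.9 CPM in Control and 11.8, 11.7 and 10.3 CPM with NaHPO4. Its libraries did not overlap, yet its SE of 0.0933 was the largest of the 35 genes in this comparison and the FDR was 0.212. The mannosidases Manba and Man2b1 had log2FC of -0.14 (FDR 0.178) and -0.11 (FDR 0.0836). Gla, the α-galactosidase whose promoter carries 2 copies of TCACGTGA, had a positive value of 0.10 with NaHPO4 (95% interval -0.08 to 0.28) and a negative one of -0.13 with BGP (-0.32 to 0.05). The remaining genes, Gusb, Ids and Glb1, lay between 0.00 and 0.06 with NaHPO4.

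Genes of lipid and sphingolipid handling were divided. Psap was the most abundant of all in CPM, with 1492, 1458 and 1492 CPM in Control, 1414, 1458 and 1499 CPM with BGP and 1311, 1337 and 1327 CPM with NaHPO4. The NaHPO4 libraries were below the other 6, while BGP and Control overlapped. Psap fell by 10.5% with NaHPO4 (log2FC -0.16, SE 0.030, FDR 0.000363) and differed between BGP and NaHPO4, with BGP above (log2FC 0.14, SE 0.030, FDR 0.00311). Grn, whose product progranulin binds prosaposin and is carried to the lysosome with it, had a log2FC of -0.09 with NaHPO4 (FDR 0.0945). Of the genes that overlap Grn in the annotation, the one with the largest overlap covers 32.8% of its exon bases.

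For 5 of the 8 lipid genes the log2FC with NaHPO4 was above 0, as it was for 50% of all tested genes. None of these 5 passed the test. Npc1, which exports cholesterol from the lysosome, was at 67.4, 67 and 70.8 CPM in Control, 69.6, 72.9 and 69.1 CPM with BGP and 73.8, 74.7 and 72.9 CPM with NaHPO4. NaHPO4 lay above Control without overlap, and the log2FC was 0.11 (95% interval 0.02 to 0.19, FDR 0.122). The acid lipase Lipa and the acid sphingomyelinase Smpd1 also had all NaHPO4 libraries above Control, with log2FC of 0.08 (FDR 0.366) and 0.05 (FDR 0.61). Npc2, which hands cholesterol to Npc1, had -0.03 (95% interval -0.10 to 0.04). The values for the ceramidase Asah1 and the thioesterase Ppt1 were 0.02 and 0.03.

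Of the membrane proteins 1 of 5 fell with NaHPO4 (20%, against 3.95% of all tested genes). Lamp2, a receptor for chaperone-mediated autophagy in one of its isoforms, was at 548, 564 and 532 CPM in Control, 529, 548 and 544 CPM with BGP and 494, 483 and 495 CPM with NaHPO4. Lamp1, its close relative, was at 824, 833 and 805 CPM in Control, 812, 835 and 837 CPM with BGP and 764, 801 and 795 CPM with NaHPO4. NaHPO4 lay below Control for both, with a gap for Lamp2 and a narrow margin for Lamp1. Lamp2 fell by 10.5% (log2FC -0.16, SE 0.032, FDR 0.000726) and differed between BGP and NaHPO4, with BGP above (log2FC 0.14, SE 0.032, FDR 0.00412), whereas the log2FC of Lamp1 was -0.06 (95% interval -0.12 to 0.00, FDR 0.266). Whether Lamp1 and Lamp2 differed in their response was not tested. In the annotation the gene with the largest overlap covers 49.2% of the exon bases of Lamp1, and a further gene overlaps Lamp1 too. No gene was found to overlap the exons of Lamp2. Laptm4a had -0.05 and Cd63 0.06 with NaHPO4 (FDR 0.325 and 0.275), and the calcium channel Mcoln1 had 0.01 (95% interval -0.10 to 0.12).

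The 2 proton pump subunits gave values near 0 in both treatments. Atp6v0d1 had a log2FC of 0.01 with BGP and -0.01 with NaHPO4 (95% interval -0.09 to 0.07), and Atp6v1h had 0.01 and 0.01 (-0.07 to 0.10).

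Tfeb, the regulator, was scarce and its transcript did not change detectably. It was at 17.5, 15.6 and 18.1 CPM in Control, 16.8, 18.3 and 17 CPM with BGP and 15, 15.2 and 18 CPM with NaHPO4, and all 3 groups overlapped. The log2FC was 0.03 with BGP (95% interval -0.15 to 0.20) and -0.09 with NaHPO4 (-0.26 to 0.08, FDR 0.626), so a change as large as that of Neu1 was just outside the interval for NaHPO4. TFEB is controlled largely by its phosphorylation and its movement into the nucleus, which these libraries do not measure. Sqstm1, the p62 receptor that carries ubiquitinated cargo into autophagosomes, was at 469, 468 and 464 CPM in Control, 438, 455 and 455 CPM with BGP and 442, 441 and 449.7 CPM with NaHPO4. Both phosphates lay below Control without overlap, with log2FC of -0.06 (FDR 0.445) and -0.07 (FDR 0.175).

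Of the 9 genes that fell with NaHPO4, 6 had a mean level of 200 CPM or more. The level of a gene bears on whether a small change can be called, so the calls were set beside those of other genes of like level, taken as the mean CPM over all 9 libraries. At 200 CPM or more, 6 of 14 lysosomal genes (42.9%) and 18.5% of 758 genes were called lower with NaHPO4. Between 50 and 200 CPM it was 3 of 15 (20%) against 6.41% of 3466 genes, and below 50 CPM 0 of 6 against 1.88% of 9455 genes. In the group at 200 CPM or more the median log2FC was -0.09 for the lysosomal genes and -0.01 for all genes. The share of all counted reads taken by the 37 genes was 0.8949% to 0.9295% in the NaHPO4 libraries, below each Control library, and 0.9288% to 0.9544% with BGP, which overlapped both. The members were chosen by name, with earlier results of these data known, and these shares carry no test.

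**Figure D3:**
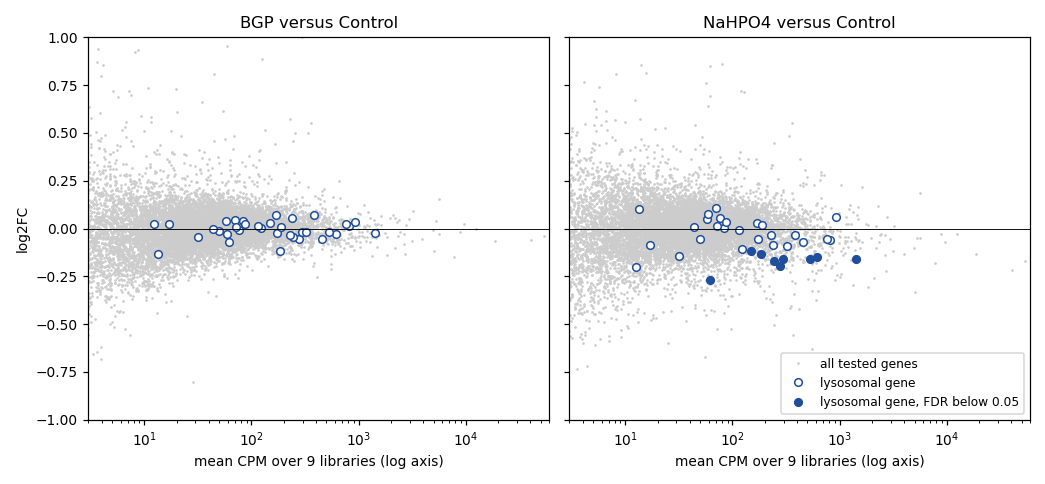
Log2FC against Control (y axis, limited to -1 to 1) and mean CPM over 9 libraries (x axis, log scale) for all tested genes (grey) and the 35 lysosomal genes (blue, filled where the FDR was below 0.05), with BGP left and NaHPO4 right. With NaHPO4 the filled points lie below 0 and, except Neu1, above 100 CPM, and with BGP no point is filled.

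Markers of bone cells moved with the same comparison. Of the 12 osteoblast and osteocyte markers 5 fell with NaHPO4, namely Alpl, Bglap, Bglap2, Col1a1 and Sost, and Dmp1 rose, or 41.7% and 8.33%, against 3.95% and 3.43% of all tested genes. Alpl, the tissue-nonspecific alkaline phosphatase, had a log2FC of -0.21 (FDR 0.00128) and Col1a1 one of -0.22 (FDR 2.47e-05). Bglap and Bglap2, the osteocalcin genes, had -0.15 and -0.14 (FDR 0.0146 and 0.00591), and Sost, a scarce osteocyte transcript, had -1.68 (FDR 0.00272). With BGP none of the 12 fell, and Dmp1 and Phex, which act in matrix mineralisation, rose. Between the treatments 6 of the 12 were higher with BGP (50%, against 3.33% of all tested genes), namely Bglap, Bglap2, Col1a1, Dmp1, Sost and Sp7, and none was lower. The part of these markers in the lysosomal result was not tested. Of the 12 macrophage and osteoclast markers, 4 were at 0 in every library and 5 had at most 4 counts in any, while Csf1r (15 to 27 counts), Cd68 (11 to 33) and Fcer1g (6 to 32) were detected in every library. None of these 3 passed the test. Their log2FC were -0.23, -0.26 and -0.46 with NaHPO4 against Control and 0.37, 0.49 and 1.16 with BGP against NaHPO4, and their part in the lysosomal result was not tested.

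Other genes of the same pathway were taken from lists of lysosomal, delivery, nutrient-sensing and autophagy genes, of which 115 of 128 names could be tested. With BGP 1 of the 115 rose and 1 fell (0.87% each), against 1.86% and 0.665% of all tested genes. With NaHPO4 4 rose and 11 fell, or 3.48% and 9.57%, against 3.43% and 3.95% of all tested genes, so the share that rose was near that of all genes. Between the treatments 6 were higher and 2 lower with BGP (5.22% and 1.74%, against 3.33% and 2.05% of all tested genes), and with total counts in place of TMM factors this turned to 1 higher and 4 lower. The 24 other hydrolases and activators tested held 5 of the 11 decreases with NaHPO4, Lgmn, Naaa and Sgsh among them, and no increase. These 5 are 20.8% of the 24, against 3.95% of all tested genes.

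Lgmn, the asparaginyl protease legumain that processes cathepsins, was at 56.4, 58.2 and 63.2 CPM in Control, 58, 57.8 and 60 CPM with BGP and 53, 52 and 52 CPM with NaHPO4. The NaHPO4 libraries were below the other 6, and BGP and Control overlapped. Lgmn fell with NaHPO4 (log2FC -0.18, SE 0.047, FDR 0.0114) and had a log2FC of -0.02 with BGP (FDR 0.919). Sgsh, a sulfatase of heparan sulfate breakdown, also fell with NaHPO4 (log2FC -0.20, FDR 0.0149) and had -0.04 with BGP.

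Of 14 further proton pump genes 2 fell with NaHPO4 (14.3%, against 3.95% of all tested genes). They were the membrane-sector subunits Atp6v0b (log2FC -0.15, FDR 0.0123) and Atp6v0c (log2FC -0.14, FDR 0.0328). Among 21 other lysosomal membrane proteins Litaf, a regulator of endosomal trafficking, rose with both phosphates. Litaf was at 84.8, 77.4 and 86.3 CPM in Control, 112, 107 and 103 CPM with BGP and 95.3, 91.4 and 101 CPM with NaHPO4, without overlap between the groups. Its log2FC was 0.38 with BGP and 0.21 with NaHPO4, and the treatments differed by 0.17 (FDR 0.0171). The two-pore channel Tpcn1 fell with NaHPO4 (log2FC -0.13, FDR 0.0211) and differed between BGP and NaHPO4, with BGP above (log2FC 0.22, FDR 8.7e-05).

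Of the 18 genes that deliver enzymes to the lysosome only Sort1 passed the test, or 5.56% lower with NaHPO4 against 3.95% of all tested genes. Sort1, the sorting receptor sortilin, was scarce at 6.50, 5.35 and 6.69 CPM in Control, 5.19, 5.26 and 5.42 CPM with BGP and 4.26, 4.42 and 3.44 CPM with NaHPO4. It fell with NaHPO4 (log2FC -0.61, SE 0.141, FDR 0.00382), the 1 gene of the lists that passed the FDR and an absolute log2FC of 0.5 together. None of the 15 genes of the TFEB family and of nutrient sensing rose or fell against Control, and Lamtor2, of the complex that anchors mTORC1 at the lysosome, differed between the treatments with BGP below (log2FC -0.19, FDR 0.0394).

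Of 23 autophagy genes 3 rose and 2 fell with NaHPO4, or 13% and 8.7%, against 3.43% and 3.95% of all tested genes. Wipi1, which marks forming autophagosomes, rose (log2FC 0.14, FDR 0.00603), as did Vmp1 (log2FC 0.17, FDR 0.00721) and the mitophagy receptor Bnip3l. The cargo receptor Optn fell (log2FC -0.17, FDR 0.00797), as did Map1lc3b, which encodes the LC3 protein of autophagosome membranes. The median log2FC of the 23 autophagy genes was 0.03, and that of the 24 other hydrolases -0.06. With total counts in place of TMM factors, 8 genes of the lists fell with NaHPO4 and 4 rose.

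**Figure D4:**
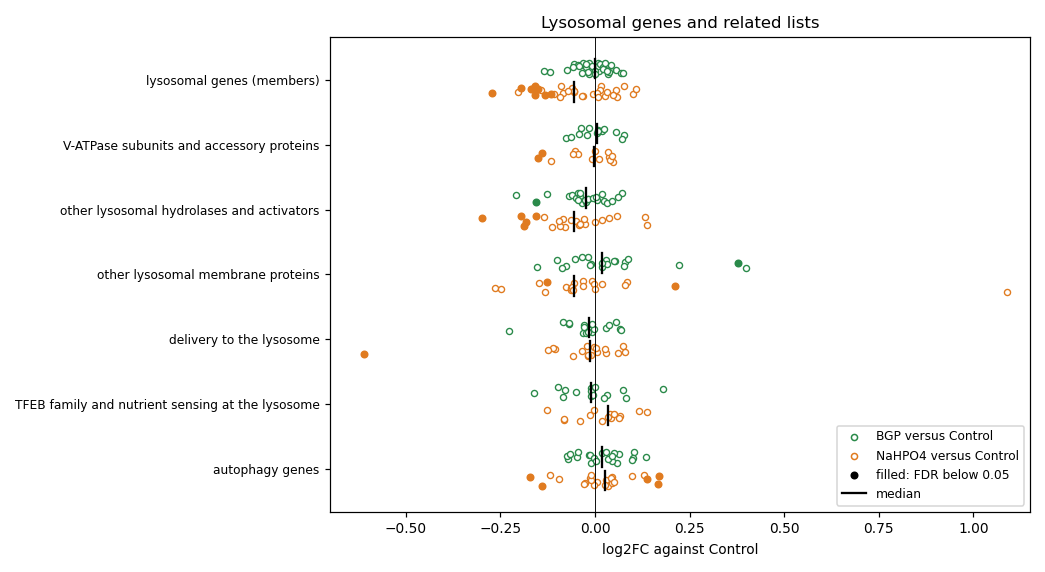
Log2FC against Control (x axis) of the tested lysosomal genes and of 6 related lists (y axis) after BGP (green) and NaHPO4 (orange); filled points passed an FDR of 0.05 and black lines are medians. The filled NaHPO4 points of the lysosomal genes and the other hydrolases all lie below 0, those of the autophagy genes lie on both sides, and Sort1 stands alone at -0.61. The open point beyond 1 is Cln3, which had at most 0.69 CPM in any library and did not pass the test.

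The CACGTG and TCACGTGA letters were compared with the calls as a description. Of the 8 genes that fell with NaHPO4 and had a promoter entry, 2 held CACGTG, Ctsl and Gaa, and 0 held TCACGTGA. Of the other 22 tested genes with an entry, 7 held CACGTG and 5 held TCACGTGA. Both copies of TCACGTGA in Gla stand beside a log2FC of 0.10 with NaHPO4 against Control, and those in the Ctsa promoter beside -0.09. The copies in Mcoln1, Ctsd and Atp6v0d1 stand beside 0.01, -0.03 and -0.01. None of these 5 genes passed the test against Control, whereas Ctsa was called between BGP and NaHPO4 (log2FC 0.14, FDR 0.00591). A match is not evidence of binding, and a window without a match says only that these letters are not in it.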

How the data were processed

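RNA sequencing of differentiated MC3T3-E1 cells (Control, BGP and NaHPO4, 3 libraries each) was re-analysed, with groups and replicate numbers taken from the sample labels. The authors deposited a table of read counts per Ensembl gene, without normalization, mapped to GRCm39. The aligner, counter and strand setting are not given in the sources used here. The deposited TMM table holds a signal, namely each library's counts times 1 factor, and was used for the limma alternative with log2(value + 1) and to match gene symbols. No column of the authors' comparisons was used.

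Genes were filtered with filterByExpr (count minimum 10), scaled by TMM and fitted over all 9 libraries with the quasi-likelihood test of edgeR 4.0.16 in R 4.3.3, with Benjamini-Hochberg adjustment over 13679 genes. Calls had an FDR below 0.05. CPM values use the TMM factors. Library depth was 21390839 to 28234404 counts and the common biological coefficient of variation 3.64%. TMM factors were 0.9912 to 1.001 in Control, 0.9888 to 0.997 with BGP and 1.01 to 1.017 with NaHPO4. Intervals are 95% t intervals of the fit. Alternatives used DESeq2 1.42.0, limma 3.58.1, other scalings, filters and samples. Transcript lengths and overlaps came from GENCODE, promoters from RefSeq.

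Named genes are all members by role, with every library's value for those called in any comparison and for Tfeb, Lamp1, Ctsd, Ctsk, Ctsb and Sqstm1, and up to 3 genes of each related list by smallest FDR. Cln3 was named after its values were seen. Some genes of the list of other hydrolases enter its counts and are not reported here by name. The members, lists and rules were chosen with earlier results of these data known. Deviations of same-numbered libraries from their group means correlated at -0.0092 to 0.0426 over all tested genes. Between Control and NaHPO4 these were 0.0301, 0.0426 and 0.0409, and other pairs of these groups gave -0.0456 to 0.00218. Such small values do not settle whether the numbers mark pairs. The labels name no pairs, so the main fit used none and the replicate number entered only as an alternative.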

Additional observations from a re-analysis of the deposited data

How the results depend on the processing

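In 17 alternative settings every lysosomal gene called in a comparison kept its direction. For each comparison 3 of the 17 left out a library of the group not compared. Such a library enters only through the shared filter, scaling and spread, so these settings are no separate check. With NaHPO4 against Control, Ctsb, Ctsk, Gaa, Hexa, Lamp2, Neu1 and Psap were called in all 17, Ctsl in 15 and Tpp1 in 8. Between the treatments Ctsa, Ctsk, Lamp2 and Psap were called in all 17, Gaa, Neu1 and Tpp1 in 16, and Ctsb and Hexa in 11. Leaving out 1 library at a time gave 7 to 9 lysosomal genes lower with NaHPO4 and 5 to 10 higher with BGP than with NaHPO4. It gave 0 to 1 lower with BGP than Control (1 without NaHPO4 replicate 1). Among all tested genes the calls also varied, with 366 to 536 lower with NaHPO4 (540 in the main fit). For BGP above NaHPO4 they were 320 to 478 (456 in the main fit), and for BGP below Control 34 to 120 (91). The medians of the lysosomal genes were -0.0804 to -0.0404 for NaHPO4 and 0.0438 to 0.0742 between the treatments. The medians farthest from the main values came without NaHPO4 replicate 3, and the count of 5 without BGP replicate 3. DESeq2 and limma each called 1 gene lower with BGP, Ctsl. Requiring an absolute log2FC above 0.5 left 0 genes lower with NaHPO4 and 0 higher with BGP than with NaHPO4. Total counts gave 1 gene higher with NaHPO4, and medians of -0.032 and 0.0183. The medians of all tested genes were then 0.0246 and -0.029, against 9.75e-05 and -0.00185 in the main fit. For the related lists total counts gave 1 higher and 4 lower with BGP than with NaHPO4. The cause of these shifts was not tested. Values near 0 that were not called changed sign for Tfeb with BGP (-0.0344 without Control replicate 2, -0.0116 without BGP replicate 2, range to 0.0707), Lamp1 with BGP (-0.000292 without Control replicate 3, range to 0.0273), Ctsb with BGP (0.00733 without BGP replicate 1, range from -0.0608) and Sqstm1 between the treatments (-0.0122 with total counts, -0.000933 with limma).

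The replicate block, with the replicate number as a term, gave 9 genes lower with NaHPO4, 9 higher with BGP than with NaHPO4 and 0 called with BGP against Control, with medians of -0.0568, 0.0455 and -0.0011, and changed no call of the 35 lysosomal genes. In the related lists it gave 12 in place of 11 genes lower with NaHPO4, and 5 in place of 6 higher and 3 in place of 2 lower with BGP than with NaHPO4. The labels do not say that same-numbered libraries were paired, so this is no paired result. At a depth of 21390839 to 28234404 counts the SE of the lysosomal genes was 0.0301 to 0.0936, largest for the scarce Idua, Gla and Tfeb.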
